A study of Brassica napus with 11 samples.

Results

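In the funiculus of *Brassica napus*, 35 of 97902 transcripts (0.0358%) met a rule for higher levels in both inner tissues, cortex and vasculature, than in the epidermis around them. They were chosen as the transcripts whose lowest value over the 2 cortex and 3 vasculature libraries reached 5 FPKM (fragments mapped to a transcript, scaled by its length and by the fragments mapped in the library) and was at least 3 times the highest value of the 3 epidermis libraries. All groups came from one line, DH4079 of the cultivar Topaz, with open flowers pollinated and siliques collected 7 days after pollination, at the globular stage of the embryo. Epidermis, cortex and vasculature were cut from paraffin sections with a laser, and whole funiculi (3 libraries) were also excised. Each library pooled pieces from several plants, the RNA was amplified before sequencing, and the library Cortex 3 was not sequenced. Near-identical homologs of this polyploid species can share reads.

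The funiculus is the stalk between the fruit wall and the seed. Its epidermis forms the surface, its cortex is ground tissue, and its central strand holds the phloem, which delivers sugars and amino acids, and the xylem, which delivers water. Metallothioneins are small cysteine-rich proteins that bind metals. PP2-A1 is a lectin of the phloem of Arabidopsis, and subtilases are serine proteases that are often secreted. Of the 35 transcripts, 6 have a description in the study's lists: metallothionein 2A (BnaA10g27170D), metallothionein 2B (BnaC03g00710D), phloem protein 2-A1 (BnaA01g34970D), a subtilase (BnaA03g44750D) and unknown proteins (BnaA05g20540D and BnaA01g17360D). A RefSeq entry was found for 5 of the 35, with no functional name. RefSeq lists BnaA01g17360D, an unknown protein in the study's description, as a miscellaneous RNA and the others as protein-coding. The remaining 26 had neither and are given by their identifiers.

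The 11 libraries were unequal in depth. Read from the spacing of low FPKM values, the fragments per library relative to whole funiculus 3 were 0.34 to 0.493 in the epidermis, 0.376 and 0.739 in cortex 1 and 2, 0.48 to 0.838 in the vasculature, and 0.759 and 0.186 in whole funiculus 1 and 2. Whole funiculus 2 stood apart, with an FPKM total 3.94 times the mean of the other 2 whole funiculus libraries, and is given separately throughout, as the study also left it out of its averages. Markers that the study named from these same libraries followed their labels when summed. The 5 epidermis markers included the acyl transferase *PEL3*, the pectin methylesterase *PME3* and *LTP2* (BnaAnng27610D). Most of their sum was *LTP2*, at 3253, 1610 and 2917 FPKM in epidermis 1, 2 and 3, while *PME3* was at 34.2 to 47.5 FPKM there. The sum of the 5 was 1959 to 3714 FPKM in the epidermis and 3.81 to 17.6 FPKM in the vasculature. The 6 cortex markers summed to 2553 and 3068 FPKM in the cortex, 445 to 498 in the epidermis and 68.9 to 154 in the vasculature. *VGD1* (BnaA03g21590D), which the study also named for the epidermis, was kept apart. It was at 59.6, 5.95 and 0 FPKM in epidermis 1, 2 and 3 and at 0 to 7.46 FPKM in the vasculature. Epidermis markers were also present in the cortex, at a summed 218 and 706 FPKM in cortex 1 and 2, of which *LTP2* gave 158 and 605 FPKM.

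**Figure D1:**
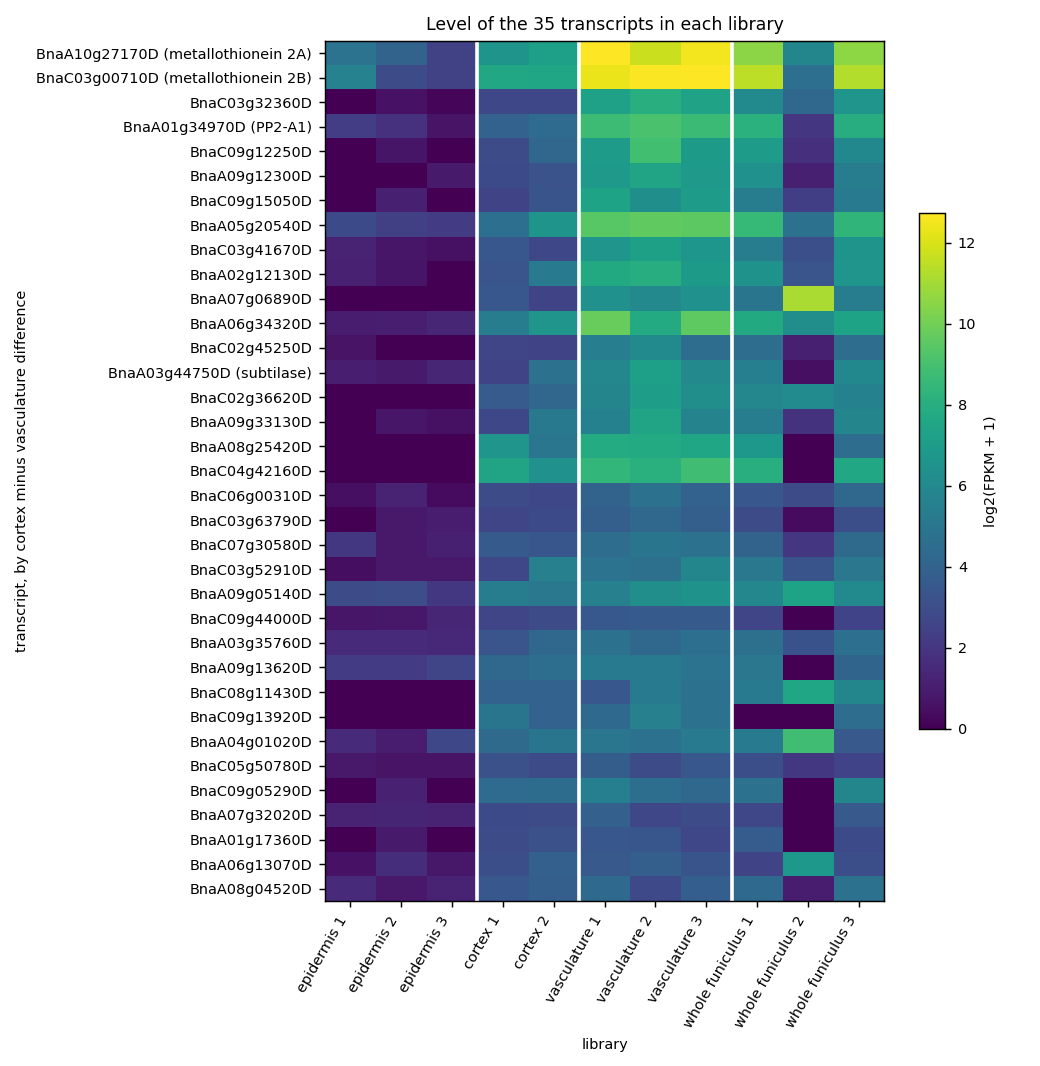
Level of each of the 35 transcripts (rows, ordered by the difference between cortex and vasculature) in each of the 11 libraries (columns), as log2(FPKM + 1). In every row the 3 epidermis columns are darker than the cortex and vasculature columns. The vasculature columns are brightest in the upper rows, and whole funiculus 2 departs from whole funiculus 1 and 3 in both directions.

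The epidermis values chose the transcripts and are therefore described without a test. Mean epidermis levels ran from 0 to 20.2 FPKM with a median of 0.688 FPKM, mean cortex levels from 5.15 to 186 FPKM (median 14.7) and mean vasculature levels from 8.33 to 6227 FPKM (median 70.8). In the 29 transcripts with any epidermis signal, the lowest inner value was 3.01 to 26.2 times the highest epidermis value (median 4.52). The largest ratio belonged to BnaA06g34320D, at 1.06, 1.12 and 1.54 FPKM in epidermis 1, 2 and 3, 40.3 and 97.9 FPKM in cortex 1 and 2, and 883, 219 and 769 FPKM in vasculature 1, 2 and 3. The lowest inner value was in cortex 1 for 19 transcripts (27.0% of the 8964 transcripts with at least 5 FPKM in every cortex and vasculature library) and in cortex 2 for 10 (19.1%).

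Membership was sensitive to the threshold and to single libraries. Just inside the fold stood BnaC07g30580D at 3.01 times the highest epidermis value, BnaA08g04520D at 3.18 and BnaA03g44750D at 3.28, and just outside it BnaA03g52920D at 2.99, BnaC05g39800D at 2.93 and BnaAnng00950D at 2.85. Near the floor, BnaC02g45250D had a lowest value of 5.05 FPKM and BnaA07g06890D one of 5.13 FPKM, while BnaA01g09940D at 4.91, BnaC06g39000D at 4.89 and BnaA04g27120D at 4.82 FPKM fell short. With cortex 1 left out the same rule took 174 transcripts, with cortex 2 left out 81, and with epidermis 1, 2 or 3 left out 55, 59 and 77. Leaving out a library can only add transcripts under this rule, so the 35 were included each time by construction.

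The depth behind the values differed by orders of magnitude. Within each of the 35 transcripts, the FPKM values multiplied by library depth were whole multiples of one smallest spacing, called a step here. This held within 0.1 steps for the 4 to 10 values of up to 60 steps that each transcript has (largest distance 0.0771). With the depths shifted by 1 library, such a spacing was found for 5 of the 35. A step is the largest spacing that accounts for the values, so a transcript can rest on a multiple of the reads given, and reads shared among homologs may count in part.

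Exactly 6 of the 35 were listed at 0 in all 3 epidermis libraries, and these were also the 6 that rested on the fewest steps. They were the 6 such transcripts among all 8964 with at least 5 FPKM in every cortex and vasculature library. BnaC04g42160D was at 171 and 86.7 FPKM in cortex 1 and 2 and at 342, 267 and 459 FPKM in vasculature 1, 2 and 3. These high values stood for 1 step in each cortex library and for 3, 2 and 6 steps in the vasculature. BnaC09g13920D was at 29.7 and 15.1 FPKM in the cortex, 1 step in each library, and at 19.8, 46.4 and 26.6 FPKM in the vasculature, 1, 2 and 2 steps. BnaC08g11430D was at 15.1 and 15.3 FPKM in the cortex, 3 steps in all, and at 10.1, 35.4 and 27.0 FPKM in the vasculature, 8 steps in all.

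A listed 0 in the epidermis bounds these levels only loosely. A total of 3 steps over the 3 epidermis libraries corresponds to 162 FPKM for BnaC04g42160D, 28.1 FPKM for BnaC09g13920D and 9.57 FPKM for BnaA07g06890D, each above that transcript's mean cortex level (129, 22.4 and 7.61 FPKM). For BnaC08g11430D and BnaC02g36620D the cortex means, on 3 and 4 steps, were 1.06 and 1.33 times the same limit. For BnaA08g25420D, at 100 and 30.6 FPKM in the cortex on 8 steps and at 228, 220 and 180 FPKM in the vasculature on 51, the means were 3.44 and 10.99 times the limit. In the vasculature BnaA07g06890D stood at 87.6, 63.1 and 85.9 FPKM and BnaC02g36620D at 54.4, 137 and 78.2 FPKM. The limit covers counting error in the epidermis only, and since the epidermis values chose the transcripts these quotients are a description.

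The other 29 transcripts rested on 22 to 432 steps in the cortex (median 84) and on 1 to 53 steps in the 3 epidermis libraries together (median 7). BnaA10g27170D, metallothionein 2A, had the most, with 53, 432 and 31181 steps in epidermis, cortex and vasculature.

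**Figure D2:**
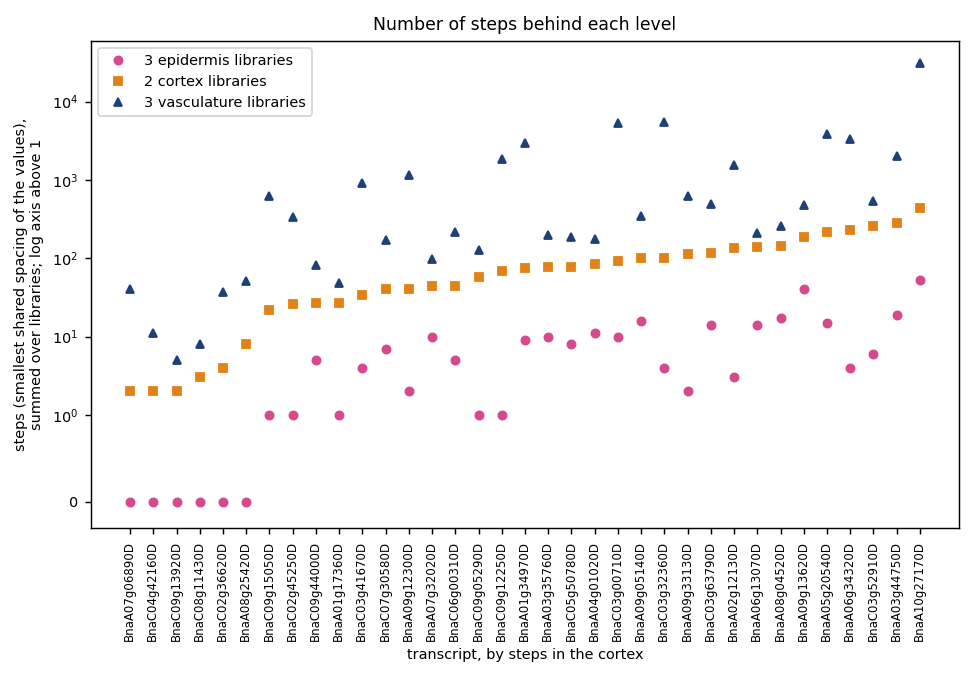
Steps behind the level of each of the 35 transcripts (x axis, ordered by steps in the cortex), summed over the 3 epidermis, 2 cortex and 3 vasculature libraries (y axis, logarithmic above 1). The 6 transcripts at the left have 0 steps in the epidermis and 2 to 8 in the cortex, and the other 29 have at least 22 in the cortex.

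Between cortex and vasculature 18 of the 35 transcripts differed by the test below, and 14 of the other 17 had means within 2-fold. The choice did not set these tissues against each other, but it used their values through the lowest of them. The counts are therefore a description of the chosen transcripts. With limma on log2(FPKM + 1) over 45300 transcripts, 18 of the 35 were higher in the vasculature at a Benjamini-Hochberg adjusted p under 0.05, against 5.73% of all transcripts tested and 2.78% of the 8964 with at least 5 FPKM in every cortex and vasculature library. By limma 0 of the 35 were higher in the cortex (4.25% of all tested). At an unadjusted limma p under 0.05, 22 of the 35 differed (10494 of the 45300), and 0 were higher in the cortex (4702 of the 45300). The fitted difference was below 0 for all 35 (23935 of the 45300), with a median of -1.51 against -0.05 over all transcripts tested. In 25 of the 35 every vasculature library was above both cortex libraries (21.1% of all tested), and in 0 was the order inverted (18.4%). The study's records give a lower RNA integrity for each vasculature library than for each epidermis and cortex library, so integrity and tissue cannot be told apart. Fewer cells of a type and less RNA per cell also cannot be told apart in dissected pieces.

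The metallothioneins were the most abundant of the 35 in the vasculature and had the largest differences on the log2(FPKM + 1) scale. Metallothionein 2A (BnaA10g27170D) was at 27.6, 15.5 and 4.67 FPKM in epidermis 1, 2 and 3, at 95.2 and 143 FPKM in cortex 1 and 2, at 6664, 3380 and 5804 FPKM in vasculature 1, 2 and 3, and at 1484 and 1526 FPKM in whole funiculus 1 and 3. Metallothionein 2B (BnaC03g00710D) was at 49.7, 6.52 and 4.495 FPKM in the epidermis, 189 and 183 FPKM in the cortex, 5327, 6510 and 6844 FPKM in the vasculature and 2839 and 2447 FPKM in whole funiculus 1 and 3. Cortex and vasculature did not overlap in either gene, and the choice itself set the epidermis below both. The log2 differences between cortex and vasculature were -5.43 ± 0.65 (SE, limma adjusted p of 0.00140) and -5.05 ± 0.82 (0.00540), so the vasculature means were 44.3 and 33.5 times the cortex means. The call for metallothionein 2B was lost without cortex 1 or without cortex 2 (limma adjusted p of 0.0691 and 0.0670), where a single cortex library remained, while the difference stayed at -5.08 and -5.03.

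Other copies of these genes fell outside the choice. A second metallothionein 2B transcript, BnaA03g54880D, was at 84.8 and 374 FPKM in the cortex and 3027, 3124 and 3913 FPKM in the vasculature. It missed the choice because cortex 1 was less than 3 times epidermis 1, at 44.0 FPKM. The metallothionein 2A copy BnaC02g03550D was at 104 to 264 FPKM in the epidermis and 163 and 204 FPKM in the cortex, overlapping, and at 599 to 1482 FPKM in the vasculature. Another copy, BnaCnng40400D, was at 7.55 FPKM in cortex 1 and 152 FPKM in cortex 2. All 3 were higher in the vasculature than in the cortex (limma adjusted p of 0.0102, 0.0197 and 0.0445). They come from the study's list of vasculature transcripts, which was chosen on these libraries.

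PP2-A1 had the same order of tissues at a lower level. BnaA01g34970D was at 3.99, 2.51 and 0.58 FPKM in the epidermis, 15.1 and 21.2 FPKM in the cortex, 419, 546 and 415 FPKM in the vasculature and 281 and 242 FPKM in whole funiculus 1 and 3. Its cortex mean was 7.69 times the epidermis mean, on 75 and 9 steps, and the vasculature mean 25.3 times the cortex mean (log2 difference of -4.60 ± 0.47, limma adjusted p of 0.000748). A related transcript outside the choice, phloem protein 2-A10 (BnaC05g07510D), was at 6.80 to 9.26 FPKM in epidermis 1 and 2, 0.67 FPKM in epidermis 3, 22.8 and 23.2 FPKM in the cortex and 295 to 362 FPKM in the vasculature, and fell short of the fold.

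The unknown protein BnaA05g20540D and the subtilase were uneven between the cortex libraries. BnaA05g20540D was at 3.72 to 6.17 FPKM in the epidermis, 24.4 and 95.2 FPKM in cortex 1 and 2, and 701, 789 and 742 FPKM in the vasculature (log2 difference of -3.91 ± 0.51, limma adjusted p of 0.00210). The subtilase transcript BnaA03g44750D was at 0.91 to 1.56 FPKM in the epidermis, 5.12 and 26.6 FPKM in the cortex, and 58.6, 145 and 62.2 FPKM in the vasculature. Its difference (-2.66 ± 0.63, limma adjusted p of 0.0311) passed in 9 of 15 alternative fits, with adjusted p of 0.0164 to 0.169. A second copy, BnaC07g36780D, was at 0.41 to 0.58 FPKM in the epidermis, 1.66 and 7.33 FPKM in the cortex and 15.8 to 85.7 FPKM in the vasculature.

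The remaining transcripts higher in the vasculature carry no description. BnaC03g32360D, whose ratio of vasculature to cortex mean (33.6) was close to that of metallothionein 2B, was at 0, 0.56 and 0.13 FPKM in the epidermis, 5.74 and 5.83 FPKM in the cortex and 157, 266 and 160 FPKM in the vasculature (-4.80 ± 0.35, limma adjusted p of 0.000357). BnaA09g12300D was at 6.28 and 8.42 FPKM in the cortex and 118, 173 and 117 FPKM in the vasculature (-4.02 ± 0.38), and BnaC03g41670D at 10.1 and 5.80 FPKM and 99.9, 152 and 103 FPKM (-3.75 ± 0.36). BnaC09g15050D stood at 5.15 and 8.90 FPKM and 166, 81.4 and 132 FPKM (-3.97 ± 0.47). In these 4 cortex and vasculature did not overlap, and each passed in all 15 alternative fits. BnaC09g12250D was at 6.45 and 17.3 FPKM in the cortex and 133, 473 and 120 FPKM in the vasculature, with vasculature 2 far above the others. BnaA02g12130D (9.28 and 35.7 FPKM in the cortex, 122 to 246 FPKM in the vasculature), BnaC02g45250D (5.26 and 5.05 FPKM, 22.8 to 65.4 FPKM), BnaC06g00310D (6.62 and 5.89 FPKM, 15.03 to 25.9 FPKM) and BnaA06g34320D complete the calls that rest on over 20 cortex steps. Without the 6 transcripts that rest on 2 to 8 cortex steps, a view added after the steps were seen, 14 of 29 were higher in the vasculature. Of the 18 calls, 8 held in all 15 alternative fits, and without cortex 1 the count was 10, with metallothionein 2B and the subtilase among those lost. The weakest calls were BnaC06g00310D, which passed in 3 of the 15 alternatives, BnaA08g25420D in 6 and BnaC04g42160D in 7.

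**Figure D3:**
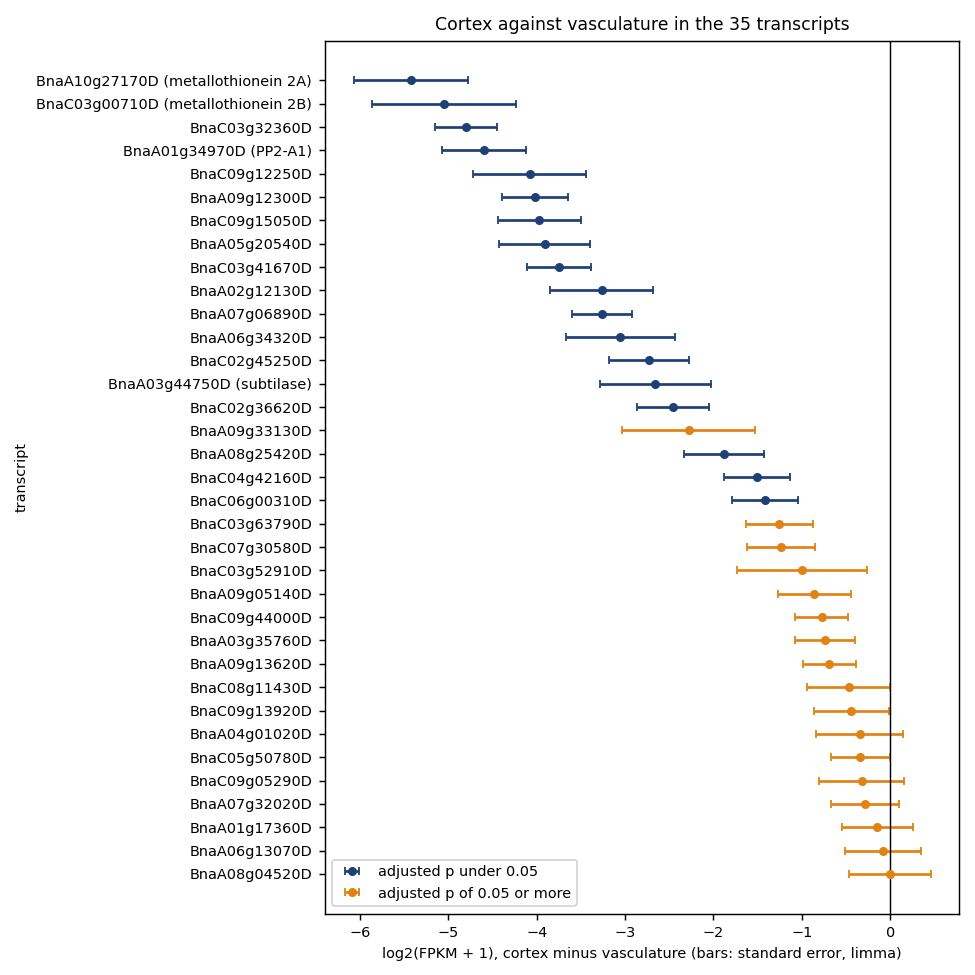
Difference between cortex and vasculature on the log2(FPKM + 1) scale for the 35 transcripts (points, with limma standard errors as bars). All points lie left of 0, 18 have an adjusted p under 0.05 (blue), and the lower rows have bars that cross 0.

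For the other 17 transcripts the difference between cortex and vasculature did not pass the test, which with standard errors of 0.30 to 0.75 log2 units does not show that the tissues were alike. The vasculature mean was 1.03 to 4.44 times the cortex mean (median 1.42) and less than 2 times in 14 of them. In 7 of the 17 every vasculature library was above both cortex libraries (21.1% of all tested, 18.5% of the 8964 transcripts of like level). BnaA08g04520D was at 9.90 and 13.4 FPKM in the cortex and 19.5, 5.96 and 12.97 FPKM in the vasculature (log2 difference of -0.01 ± 0.46), and the tissues overlapped. BnaC09g05290D was listed at 0, 1.22 and 0 FPKM in the epidermis and stood at 20.9 and 21.8 FPKM in the cortex and 44.8, 23.2 and 18.7 FPKM in the vasculature (-0.32 ± 0.48). BnaA09g13620D had 40 epidermis steps, at 3.66, 3.84 and 5.29 FPKM, with 18.4 and 23.5 FPKM in the cortex and 37.0, 38.2 and 28.0 FPKM in the vasculature. BnaA09g05140D was at 3.22 to 7.00 FPKM in the epidermis, 41.2 and 33.3 FPKM in the cortex and 45.1 to 88.9 FPKM in the vasculature.

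Others of this group were at like or lower levels. BnaA04g01020D was at 19.9 and 30.3 FPKM in the cortex and 26.7 to 37.8 FPKM in the vasculature, and BnaA03g35760D at 9.39 and 18.2 FPKM and 18.4 to 25.9 FPKM. BnaC05g50780D (8.01 and 6.52 FPKM in the cortex), BnaA07g32020D (6.14 and 6.69), BnaC09g44000D (5.39 and 6.51), BnaA06g13070D (7.28 and 14.2) and the unknown protein BnaA01g17360D (6.56 and 7.92) had vasculature means of 8.33 to 11.02 FPKM. BnaC07g30580D (11.3 and 9.60 FPKM in the cortex, 22.7 to 29.6 FPKM in the vasculature) and BnaC03g63790D (5.33 and 6.27 FPKM, 13.3 to 19.1 FPKM) did not overlap between the tissues but missed the threshold (limma adjusted p of 0.0856 and 0.0768). Both passed without epidermis 1 (limma adjusted p of 0.0360 and 0.0388). BnaC08g11430D and BnaC09g13920D, on 3 and 2 cortex steps, also belong here.

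Cortex 2 was at least 3 times cortex 1 in 5 of the 35 (14.3%, against 3.40% of the 8964 transcripts of like level). It was higher at all in 24 (68.6%, against 59.8%), and the median ratio of cortex 2 to cortex 1 was 1.21 against 1.13. BnaC03g52910D went from 5.57 to 46.2 FPKM, with 27.8, 25.0 and 57.4 FPKM in the vasculature, and BnaA09g33130D from 5.83 to 34.7 FPKM, with 48.0, 171 and 51.1 FPKM in the vasculature. The difference between cortex and vasculature of BnaC03g52910D turned from -0.999 to 0.42 without cortex 1, and was -2.42 without cortex 2 (limma adjusted p of 0.0471). Of 6 xylem markers, *XCP2* (BnaA07g11240D) and *WAT1* (BnaA02g17260D) were at 0 in cortex 1 and at 3.34 and 5.45 FPKM in cortex 2. The other *XCP2* copy (BnaC08g19510D) went from 0.83 to 3.18 FPKM and *IRX3* (BnaA03g06610D) from 0.93 to 1.21 FPKM. Of the *IRX6* copies, BnaC03g07110D went the other way, from 1.68 to 0.93 FPKM, and BnaC02g06140D was at 0 in both. The summed xylem markers were 3.44 and 14.1 FPKM in cortex 1 and 2, 1.16 to 2.37 FPKM in the epidermis and 94.0 to 111 FPKM in the vasculature. The part of these markers in the cortex levels was not tested.

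Phloem markers were low in the cortex. The 7 that are not among the 35 summed to 3.40 and 5.08 FPKM in cortex 1 and 2, 1.72 to 3.88 FPKM in the epidermis and 84.2 to 135 FPKM in the vasculature. The cortex sum was thus about 4% of the vasculature sum and the epidermis sum 2.32%, while for the xylem markers these shares were 8.62 and 1.82%. *SEOB* (BnaC03g30640D) and one *SUS5* copy (BnaCnng74430D) of the phloem, and one *IRX6* copy (BnaC02g06140D) of the xylem, were at 0 in both cortex libraries, and of the 13 markers 8 were at 0 in all epidermis libraries. In the 18 transcripts higher in the vasculature the cortex mean was 2.26 to 36.2% of the vasculature mean (median 8.84%), and in the other 17 it was 22.5 to 97.3% (median 70.5%). Epidermis medians were 0.301 and 7.01%. Whether vascular RNA in the cortex pieces contributed to the cortex levels was not tested.

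**Figure D4:**
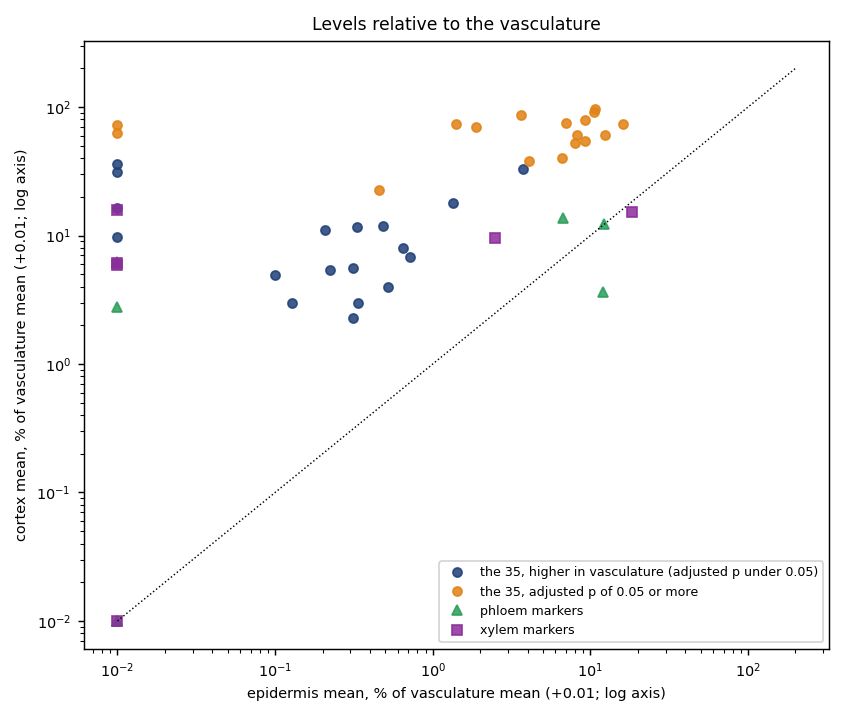
Mean cortex level (y axis) against mean epidermis level (x axis), both as a percentage of the vasculature mean on log axes with 0.01 added, for the 35 transcripts (circles), 7 phloem markers (triangles) and 6 xylem markers (squares). The 17 transcripts that did not pass the test lie at 22.5 to 97.3% on the y axis, and 3 markers at 0 in both tissues coincide in the lower left corner.

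The whole funiculus libraries were not used by the choice. Both whole funiculus 1 and 3 reached 5 FPKM in 32 of the 35 (91.4%), close to the 93.4% of transcripts of like level. In 34 both were above the highest epidermis value, against 14.9% of the 8964 transcripts of like cortex and vasculature level, and in 32 both were at least 3 times that value (1.10%). The epidermis values in these counts chose the transcripts, so the counts are a description. The exception was BnaC09g13920D, listed at 0 in whole funiculus 1 and at 22.3 FPKM, 2 steps, in whole funiculus 3. On the log2 scale the whole funiculus mean was above the cortex mean and below the vasculature mean in 24 (21.1% of transcripts of like level). These were 17 of the 18 that were higher in the vasculature and 7 of the other 17. Only transcripts lower in the cortex than in the vasculature can meet this, which were all 35 but 4687 of the 8964. A wider gap also leaves more room, and the median log2 differences were -1.51 and -0.03. The whole funiculus mean was above both in 5 and below both in 6. As a share of the vasculature level it was 28.5 to 73.9% (median 46.7%) in the 18 and 36.0 to 194% (median 77.2%) in the 17.

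By their identifiers the 35 transcripts lie on 18 chromosomes, with the most on C03, C09 and A09. The A subgenome holds 18 and the C subgenome 17 (51.4% on A, against 46.3% of the transcripts of like level). None of the 70 transcripts next to them in the order of identifiers was itself among the 35. As the 35 are 0.0358% of all transcripts, this 0 does not show whether they cluster. Of the 70, 9 (12.9%) had at least 5 FPKM in every cortex and vasculature library, against 9.16% of all transcripts.

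By function little can be said. The study's Arabidopsis descriptions were held for 1999 transcripts, of which 2 are among the 35, PP2-A1 and an unknown protein, and for its lists of enriched transcripts, which hold 5 of the 35, all on the vasculature list of 684. In that part of the table the 18 keyword lists tried, from ribosome to cell wall and hormone, held 0 of the 35. On the enriched lists, metallothionein 2A and 2B fell in the list of redox and stress proteins, and the other 17 lists held 0. The keywords of the protein degradation list did not take in the subtilase, although subtilases are proteases. Among the 18 redox and stress transcripts tested of those 1999, 1 was higher in the vasculature and 0 in the cortex by limma, with a median log2 difference of -0.07.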

How the data were processed

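The authors mapped single-end reads to the *B. napus* reference with TopHat2 (2.0.13), and their deposited FPKM values, made with Cufflinks (2.2.1), were taken as they are for 97902 transcripts and 11 libraries. Columns were matched to libraries by title. Cortex was compared with vasculature by limma 3.58.1 (lmFit, then eBayes with trend, under R 4.3.3) on log2(FPKM + 1), with all 3 tissues fitted together. Only the 45300 transcripts that averaged 1 FPKM or more in any tissue entered. A pseudocount of 1 understates the change of low transcripts. Relative depth was the most frequent quotient of low values between 2 libraries, and steps were searched with divisors up to 12 (Python 3.11.15, numpy 2.4.6, pandas 2.3.3). P-values measure the spread between pooled libraries. The study's CuffDiff test needs the reads and was not used. Members and lists were chosen with earlier results of these data known. The rule for named transcripts took the members with the largest ratio, level or difference, the smallest difference, a description or a RefSeq entry, and the transcripts at the thresholds. The other members, the further copies and the counts on steps were chosen after values were seen. Alternatives changed the pseudocount, filter, samples, variance trend, block and each library.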

Additional observations from a re-analysis of the deposited data

Results flagged for a closer look

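Whole funiculus 2, which enters no average above, held the highest value of all 11 libraries for 5 of the 35 transcripts (14.3%, against 11.9% of transcripts of like level). BnaA07g06890D was at 2197 FPKM there, against 29.97 and 41.7 FPKM in whole funiculus 1 and 3. BnaA04g01020D was at 454 FPKM, BnaC08g11430D at 182 FPKM, BnaA09g05140D at 166 FPKM and BnaA06g13070D at 110 FPKM. In the other direction, 8 of the 35 were listed at 0 in this library (29.4% of transcripts of like level), and 28 (80%, against 78.5%) were below both other whole funiculus libraries, among them PP2-A1 (BnaA01g34970D) at 3.05 FPKM. The library had the fewest fragments, at 0.186 of those of whole funiculus 3.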

How the results depend on the processing

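The count of 35 was 82 and 18 at folds of 2 and 5, 177 and 14 at floors of 1 and 10 FPKM, and 37 to 174 with 1 library left out, which can only add transcripts. The count of 18 higher in the vasculature was 10 to 18 with 1 library left out (10 without cortex 1) and 14 to 18 under the other alternatives, and 14 without the 6 transcripts on few steps. The count over all transcripts, 4518, was 2814 to 4469 with 1 library left out (2814 without vasculature 3). With 1 cortex library left, it is assumed to vary like the other groups. The 0 higher in the cortex stayed at 0 in each of these fits. The labels do not say whether replicate numbers pair the libraries. Deviations of epidermis and vasculature libraries with the same number correlated at -0.022, 0.0419 and 0.112. Those of epidermis and cortex correlated at 0.203 and -0.0412, and those of cortex and vasculature at -0.0717 and -0.0959. With so few libraries, and with the deviations of the 2 cortex libraries mirroring each other, these values cannot decide it. With the replicate block 15 were higher in the vasculature and 3138 transcripts differed. Among the 17 that did not pass, BnaC03g63790D also passed with the whole funiculus in the fit (limma adjusted p of 0.0492) and BnaA09g33130D with the block (0.0299). Some log2 differences of these 17 changed sign: BnaA08g04520D went to 0.00057 with a pseudocount of 0.5 FPKM and to 0.038 with the block. With 1 library left out the range was -0.43 to 0.35 for BnaA08g04520D, -0.52 to 0.35 for BnaA06g13070D, -2.42 to 0.42 for BnaC03g52910D, -0.90 to 0.028 for BnaC09g13920D, -0.52 to 0.088 for BnaA07g32020D and -0.58 to 0.031 for BnaC09g05290D. Depth limits the 6 transcripts that rest on 2 to 8 cortex steps.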
